A study of Drosophila melanogaster with 12 samples.

Results

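The miRNAs described here are those that were well counted in AGO1 immunoprecipitates from heads of Canton-S flies, a wild-type laboratory strain of Drosophila melanogaster, and the comparison is of flies from 18°C with flies from 29°C. A row of the deposited table, which is one mature miRNA at one hairpin, was included when its mean over all 12 libraries was at least 100. Of 403 different rows 161 were included, which are 157 mature names at 102 hairpins. The 4 libraries at 18°C and the 4 at 29°C each came from heads of ZT3, ZT9, ZT15 and ZT21, 1 library per time point (ZT, hours of the light and dark cycle after lights on). The other 4 libraries, at 25°C, entered the fit and are given as a level between the extremes. All flies were wild type and were entrained to light and dark, and the labels gave neither their age nor their sex. The labels describe the flies as grown at their temperature, and the paper says they were entrained at it. How long they were kept there was not stated for these libraries, so effects of rearing and of adult exposure cannot be told apart. The study made these libraries while asking whether miRNA control of the clock gene timeless depends on temperature.

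In flies most miRNAs act in AGO1, one of the Argonaute proteins. A miRNA is cut from a hairpin as a short duplex with one strand from each side, the 5p and the 3p arm. Usually one strand is kept in AGO1 and guides it to mRNAs that are then repressed, while the other strand, formerly called the star strand, is mostly lost. Heads hold brain, eyes, fat body and muscle, and many of their abundant miRNAs are shared with other insects or with vertebrates.

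The values are reads divided by one size factor per library, so they are reads at a common depth. Libraries held 7612981 to 13363669 miRNA reads at 18°C and 4423511 to 14424841 at 29°C, where the ZT21 library was the shallowest of the series. The included rows took 99.97% to 99.98% of the reads of a library, and the lowest of them in any library still had 14 reads. Markers of neurons (miR-124 and miR-1000) summed to 3188 to 3979 at 18°C and 3556 to 4574 at 29°C. All 4 of their rows were called, 3 higher at 18°C and 1, the most counted (miR-1000-5p), lower. Those of muscle (miR-1 and miR-133) summed to 198213 to 489006 at 18°C and 279873 to 527117 at 29°C, with 1 of 3 tested rows higher at 18°C. Ovary miRNAs (miR-318 and miR-989) summed to 121 to 322 at 18°C and 112 to 449 at 29°C. The 23 rows of testis miRNA clusters were low but did not overlap, with sums of 76.8 to 98.7 at 18°C and 155 to 210 at 29°C, and 2 of their 5 tested rows were lower at 18°C. No marker row was at 0. The part of cell makeup in the changes below was not tested, and in heads as a whole, fewer cells of a type cannot be told apart from less of the miRNA per cell. Replicates are time points, and no label says that they came from separate cultures, so the p-values measure the spread between these libraries only.

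Of the 161 well-counted miRNAs, 72 changed between 18°C and 29°C at an adjusted p under 0.05 (limma with Benjamini-Hochberg adjustment over all 244 rows tested). That is 44.7% of them, against 39.8% of all rows tested. Levels were higher at 18°C for 38 and lower for 34, where 20.9% of all rows tested were higher and 18.85% lower. With values scaled to the total reads of each library instead of the authors' size factors, 44 were higher and 24 lower, so that the share of higher calls was 64.7% in place of 52.8%. Most changes were small: 18 passed 2-fold (13 higher and 5 lower at 18°C), or 11.2% against 16.0% of all rows, and 54 were called below it. Among those 54, 14 had an absolute log2 fold change of at most 0.5. The libraries of the temperatures did not overlap for 70 of the 161 (43.5%, against 38.9% of all rows), and 62 of these 70 were among the called. The median SE of a log2 fold change was 0.15, and the smallest change called was 0.32.

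**Figure D1:**
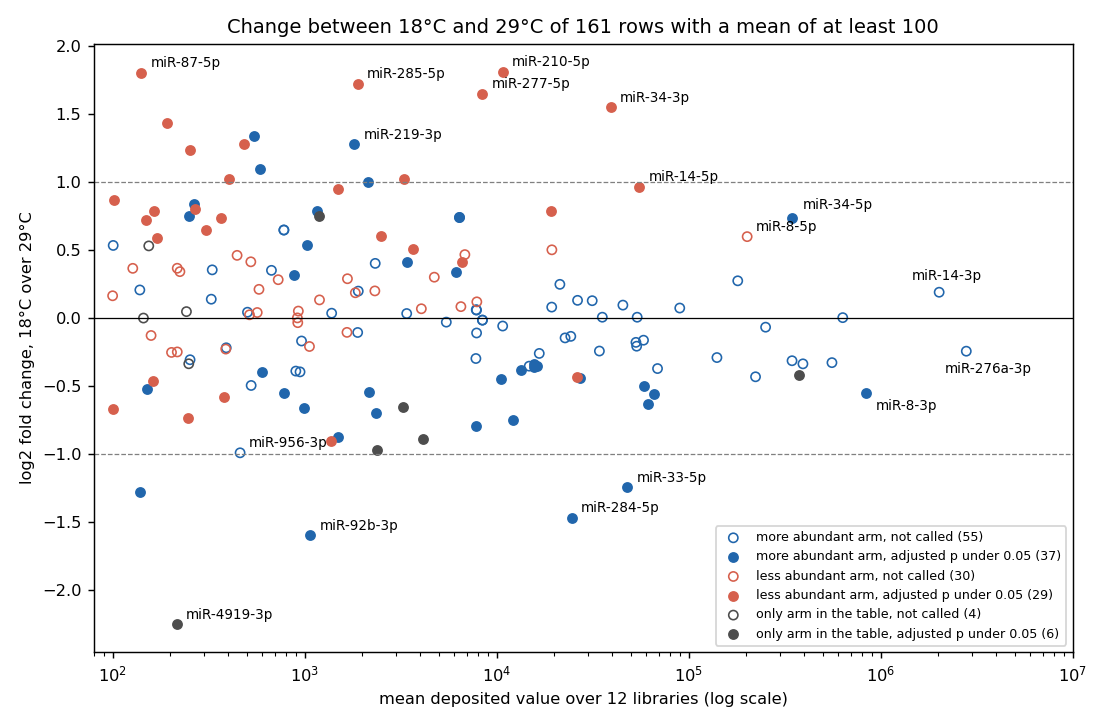
Log2 fold change of 18°C over 29°C (vertical axis) against the mean deposited value over all 12 libraries (horizontal axis, log scale) for the 161 well-counted miRNAs. Colours give the arm class, filled points were called, and dashed lines mark 2-fold. Above a mean of 10000, called points of the more abundant arm lie below 0 except miR-34-5p at 0.74.

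The most counted main arms changed in both directions. For each hairpin the arm with more reads on average over all libraries is called the more abundant arm. The arms of mir-285 were nearly equal by this measure, with 2031 reads for 5p and 2040.4 for 3p. Their mean deposited values, 1897 for 5p and 1891 for 3p, were in the other order, in this hairpin alone. Of the 42 more abundant arms with a mean of at least 10000, 1 rose (miR-34-5p), 13 fell and 28 were not called. These counts depended on the scaling, since with values scaled to total reads 3 rose and 8 fell. They leave out miR-276b-3p (below), which fell, because its 5p row repeated another row and was dropped, so that it stood as an only arm. Of all 130 more abundant arms tested, 20 rose and 26 fell (35.4% called). Of the 7 less abundant arms with a mean of at least 10000, 4 rose and 1 fell (71.4% called). Of all 88 less abundant arms tested, 28 rose and 9 fell (42.0% called).

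miR-34-5p was the highest of all miRNAs that rose at 18°C. miR-34 is shared with vertebrates, and in flies it is known for its role in ageing and in keeping neurons intact. Its values at ZT3, ZT9, ZT15 and ZT21 were 488996, 518228, 455466 and 390293 at 18°C, against 237914, 302077, 266702 and 303995 at 29°C. Every 18°C library lay above every 29°C library. The log2 fold change was 0.74 ± 0.12 (SE, adjusted p = 0.000275), and its share of all miRNA reads was 4.46% ± 0.39 at 18°C and 2.50% ± 0.30 at 29°C (SD, n = 4 each). The other arm, miR-34-3p, rose further, by 1.55 ± 0.22 (adjusted p = 0.000104), with values (in the same order of time points) of 69531, 78861, 55289 and 49090.4 at 18°C and 18744, 19228, 19142 and 29318 at 29°C. The ZT21 library at 29°C stood apart from the others of its group, yet below all 18°C libraries.

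miR-8-3p fell at 18°C and was the most abundant miRNA that changed in either direction. miR-8 is the fly member of the miR-200 family and acts on growth through insulin signalling in the fat body. Its values were 582074, 585599.5, 629668 and 761934 at 18°C, against 1079056, 819056, 1060277 and 810856 at 29°C. No libraries overlapped, and the log2 fold change was −0.55 ± 0.14 (adjusted p = 0.00709). Levels at 25°C, with a mean of 948587, were close to those at 29°C, with a mean of 942311. Its other arm, miR-8-5p, averaged 251526 ± 71227 at 18°C and 179905 ± 104303 at 29°C (SD, n = 4 each) and was not called (log2 fold change 0.60 ± 0.31, adjusted p = 0.142). One library decided this, since 29°C ZT21 had 333566 and the other 29°C libraries 102485 to 149692. Without that library miR-8-5p was called higher at 18°C, by 0.95 (adjusted p = 0.00163).

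The other leading miRNAs changed little. miR-276a-3p, which acts in olfactory memory through a dopamine receptor, was the most abundant of all. Its values were 2794249, 2690622, 2943566 and 2022731 at 18°C, against 2996374, 2976137, 3135445 and 3153354 at 29°C. All 18°C libraries were below the 29°C libraries, but the spread at 18°C was wide and the change of −0.24 ± 0.13 did not pass the test (adjusted p = 0.16). Its near copy miR-276b-3p, from a separate hairpin on the same chromosome arm, did. It had 341522, 324552, 352999 and 238195 at 18°C, against 432367, 406820.2, 399801 and 427747 at 29°C. The temperatures did not overlap, and the fall of 0.42 on the log2 scale (SE 0.13, adjusted p = 0.0191) lost its call without the 29°C ZT3 library (adjusted p = 0.053). Since the counting could split reads between these near copies, their summed level is also given, at 2927109 ± 458836 at 18°C and 3482011 ± 91837 at 29°C (SD, n = 4 each).

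miR-14-3p, known to hold back cell death and to act on insulin production, had values of 2023345 to 2455692 at 18°C and 1860959 to 2134834 at 29°C, with a log2 fold change of 0.19 ± 0.10 (adjusted p = 0.139). Scaled to total reads it was called, at 0.29 (adjusted p = 0.0222). bantam-3p, which promotes growth and blocks the death gene hid, averaged 603277 ± 48239.6 at 18°C and 603816 ± 66072 at 29°C (SD, n = 4 each), with a log2 fold change of 0.00 ± 0.11. miR-184-3p, miR-1-3p, miR-999-3p and miR-277-3p, the other rows among the 10 most abundant, had log2 fold changes of −0.33, −0.34, −0.31 and −0.07 and none was called. The muscle miRNA miR-1-3p had the widest spread of these, with 178464 to 472985 at 18°C and 259882 to 509309 at 29°C. With its SE of 0.37, the lack of a call does not show that it was unchanged.

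For miR-14 and bantam the less abundant arm rose where the main arm was not called. This held in 14 of the 59 hairpins with both arms well counted, and in 3 others the less abundant arm alone fell. The main arm alone rose in 3 hairpins and fell in 10. The share among all 86 hairpins tested for the arm ratio was not counted. Among the 14 less abundant arms that alone rose was miR-184-5p, with a rise of 0.60 ± 0.21 (adjusted p = 0.0389). It kept its call in 7 of the 12 fits that each left out 1 library. miR-14-5p had 102508, 85231, 78069.6 and 53488 at 18°C, against 32887, 38589, 39209.9 and 50491 at 29°C. The lowest 18°C library and the highest 29°C library, both from ZT21, were close to each other. The rise was 0.96 ± 0.21 (adjusted p = 0.0019). bantam-5p had 24365, 20113, 29164 and 25458 at 18°C, against 14096, 13144, 17388 and 12714 at 29°C. Here the groups were clearly apart, with a rise of 0.79 ± 0.14 (adjusted p = 0.00049).

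**Figure D2:**
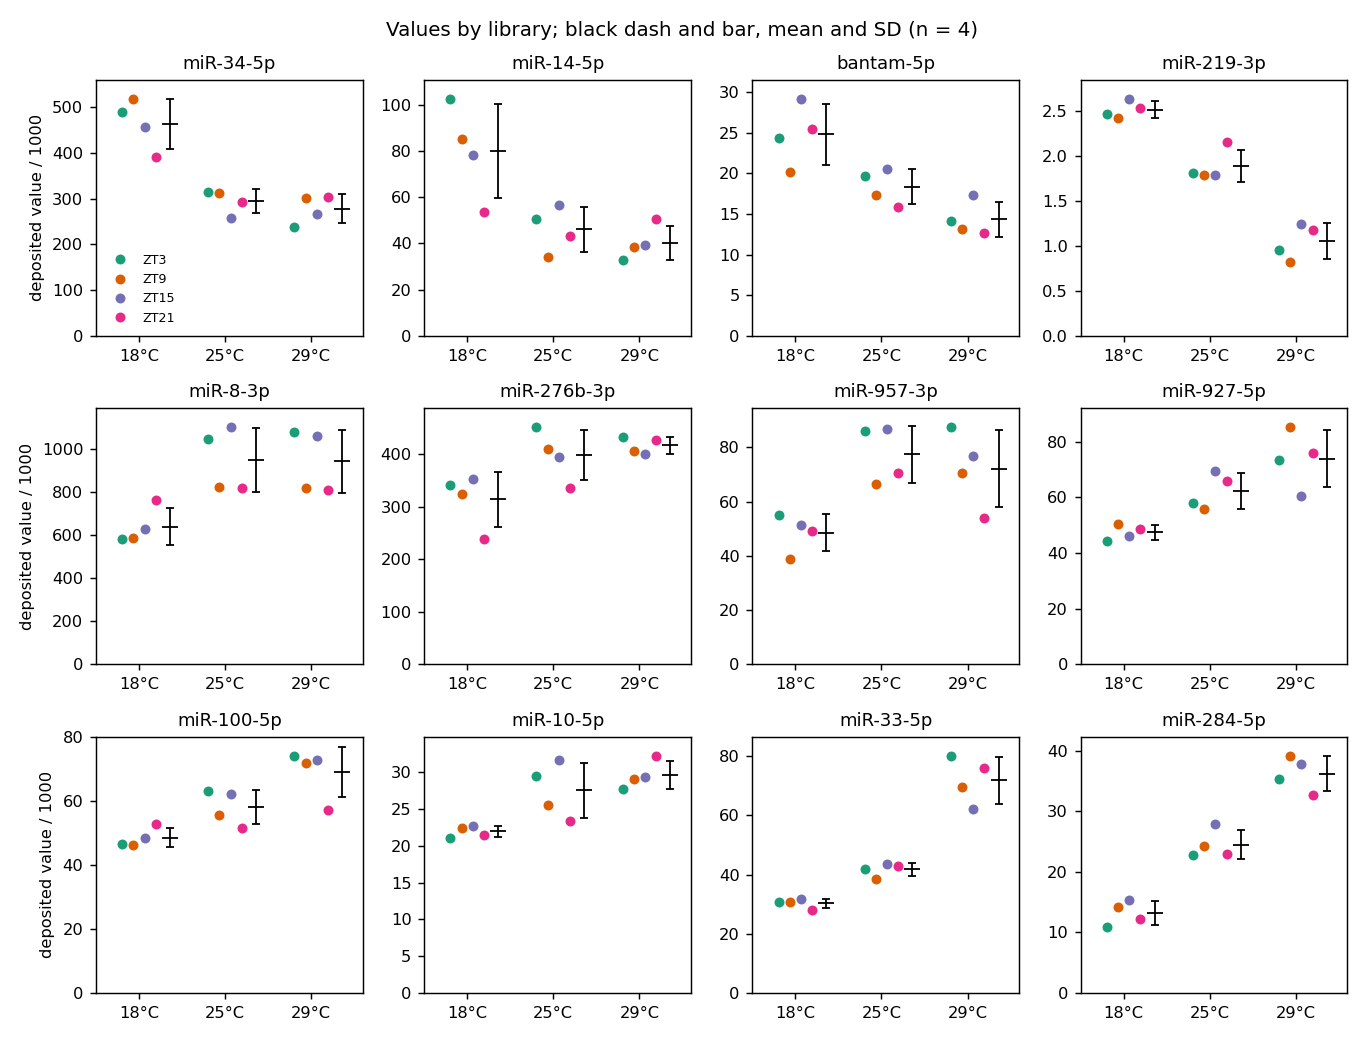
Deposited values (divided by 1000) of 12 well-counted miRNAs in each library of the temperatures 18, 25 and 29°C, coloured by time point, with the mean and SD of each temperature (n = 4) in black. The top row shows miRNAs that were higher at 18°C, such as miR-34-5p with a mean of 463246 at 18°C and 277672 at 29°C, and the other rows show miRNAs that were lower, such as miR-33-5p with 30280.4 at 18°C and 71914 at 29°C.

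Among abundant miRNAs that fell by less than 2-fold, miR-957-3p had 54991, 38848, 51442 and 49082 at 18°C, against 87377, 70623, 76816 and 53767 at 29°C. The ranges met only at ZT21 of 29°C, and the log2 fold change was −0.56 ± 0.16 (adjusted p = 0.0119). miR-927-5p, from an intron of mmd, had 44266, 50397, 46321 and 48659 at 18°C, against 73601, 85245, 60461 and 76098 at 29°C (−0.63 ± 0.12, adjusted p = 0.000835). Its libraries were tight at 18°C and all below those at 29°C. miR-10-5p, from the Hox gene cluster on 3R, had 21139 to 22734 at 18°C and 27785 to 32279.8 at 29°C (−0.43 ± 0.11, adjusted p = 0.00535). miR-278-3p, which acts on energy balance and insulin response, had 18322 to 25692 at 18°C and 26748 to 37065 at 29°C (−0.44 ± 0.13, adjusted p = 0.0135), and miR-315-5p, which can raise Wingless signalling, had 11984 to 13718 at 18°C and 16154 to 17270.0 at 29°C (−0.36 ± 0.08, adjusted p = 0.00323). Neither overlapped between temperatures. The calls of miR-315-5p and of miR-13b-3p and miR-970-3p (below) were lost with values scaled to total reads (adjusted p = 0.0661, 0.0815 and 0.0544 in that order).

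The larger falls were of miRNAs with fewer reads, apart from miR-33-5p and miR-284-5p. miR-33 lies in an intron of SREBP, the gene of a master regulator of lipid synthesis (3L:19797961-19798059, + strand, build BDGP6.54), an arrangement shared with vertebrates, and it acts on lipid metabolism. miR-33-5p had 30613, 30616, 31854 and 28038 at 18°C, against 80158, 69423, 62013 and 76062 at 29°C. Its groups were far apart, with little spread at 18°C and a change of −1.24 ± 0.10 (adjusted p = 5.44e-07). miR-284, which acts on glutamate receptors at synapses, lies in the 3′ UTR of the octopamine receptor gene Octbeta2R (3R:12551515-12551614, − strand). miR-284-5p had 10917, 14263, 15362 and 12176 at 18°C, against 35326, 39178, 37754 and 32634 at 29°C, without overlap (−1.47 ± 0.12, adjusted p = 5.44e-07).

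miR-4919-3p, from an intron of the cytochrome P450 gene Cyp4aa1, had the largest fall (−2.25 ± 0.17, adjusted p = 4e-07), with 72.3 to 96 at 18°C and 342 to 508 at 29°C. miR-92b-3p, of a family that is known in neural stem cells, had 584, 554, 574 and 569.5 at 18°C, against 1908, 2341, 1394 and 1426 at 29°C (−1.60 ± 0.15, adjusted p = 1.92e-06). The 18°C libraries were nearly equal, and the spread was all at 29°C. Its relative miR-92a-3p was just under the limit of inclusion, and the summed level of both was 651 ± 27.2 at 18°C and 1880.4 ± 456 at 29°C (SD, n = 4 each). miR-2279-5p and miR-2535b-3p also fell, by 1.28 and 0.97, and miR-1017-3p, from an intron of the acetylcholine receptor gene nAChRalpha2, had 2564 to 3062 at 18°C and 4354 to 5939 at 29°C (−0.89 ± 0.12, adjusted p = 4.45e-05).

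miRNAs that rose by 2-fold or more at 18°C were mostly less abundant arms (10 of 13). With mir-285 classed by deposited value, a choice made after the data were seen, the count was 9 of 13. Among all rows tested, 14 of 24 such rises were of less abundant arms. miR-210-5p had 24490.0, 25929.5, 15117 and 11590.5 at 18°C, against 4833, 5166, 3671 and 8018 at 29°C, a rise of 1.81 ± 0.32 (adjusted p = 0.000836). The ZT3 and ZT9 libraries were the highest at 18°C. miR-285-5p had 2951, 3786, 2801 and 3241 at 18°C, against 818, 952, 1009 and 1084 at 29°C (1.72 ± 0.13, adjusted p = 4e-07), and miR-277-5p had 13776, 12768, 12705 and 14559 at 18°C, against 3492, 3453, 4562 and 6138 at 29°C (1.65 ± 0.18, adjusted p = 6.77e-06). None of these overlapped. miR-87-5p, at 236 to 276 at 18°C and 45.1 to 98.7 at 29°C, rose by 1.80 ± 0.23 (adjusted p = 4.21e-05), and miR-2a-2-5p, miR-2c-5p and miR-263a-3p rose by 1.43, 1.28 and 1.23.

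By read count, the more abundant arms among these 13 were miR-969-3p, miR-219-3p and miR-1001-5p. Of these arms the one with the most reads was from mir-219, a hairpin with vertebrate relatives. miR-219-3p had 2461, 2416, 2635 and 2531 at 18°C, against 958, 817, 1247 and 1181 at 29°C. The 18°C libraries differed little, and all lay far above those at 29°C (1.28 ± 0.13, adjusted p = 6.4e-06). The other arm, miR-219-5p, was not called (0.04 ± 0.21, adjusted p = 0.925). miR-1001-5p, in the 3′ UTR of the microtubule gene tau, had 698 to 830.3 at 18°C and 323 to 388 at 29°C (1.10 ± 0.16, adjusted p = 0.000104). miR-969-3p had 484 to 1310.3 at 18°C and 259.8 to 408 at 29°C (1.34 ± 0.34, adjusted p = 0.00698). miR-996-5p rose by just under 2-fold, with 2709.6, 2885, 3351 and 3109.8 at 18°C, against 1389, 1489, 1697 and 1454 at 29°C (1.00 ± 0.11, adjusted p = 6.77e-06). miR-4951-5p, whose hairpin lies in the heat-inducible noncoding RNA Hsromega, was higher at 18°C, with 276 to 461 there and 172 to 258 at 29°C (0.84 ± 0.17, adjusted p = 0.0015).

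Arms of one hairpin come from the same precursor, and their ratio within a library does not depend on the scaling. Of the 92 more abundant arms 14 rose and 23 fell at 18°C (median log2 fold change −0.12), and of the 59 less abundant arms 23 rose and 6 fell (median 0.36), where the median of all 244 rows was 0.03. Of all 88 less abundant arms tested, 28 rose and 9 fell (42.0% called), beside 49.2% of these 59 and 40.2% of the 92. With values scaled to total reads, 17 of the 92 rose and 16 fell, and 26 of the 59 rose and 3 fell. Without the 29°C ZT3 library, 3 of these 59 were called lower, as miR-100-3p, miR-137-5p and miR-316-5p lost their calls. The arm ratio changed for 35 of the 59 hairpins with both arms included (59.3%, against 58.1% of the 86 hairpins tested). In 31 of the 35 the less abundant arm gained on the other at 18°C, and in 4 (mir-137, mir-219, mir-995 and mir-996) it lost. With mir-285 classed by deposited value these numbers were 30 and 5. The directions among all 50 changed hairpins of the 86 were not counted. Hairpins share the same libraries, so they are not independent of each other. In 29°C ZT21, for example, miR-8-5p, miR-34-3p, miR-210-5p and miR-277-5p were at their highest among the 29°C libraries, whereas bantam-5p was at its lowest. The less abundant arms held 5.44% to 7.44% of the reads of the 59 hairpins at 18°C and 2.82% to 5.61% at 29°C. Without mir-8, whose less abundant arm was the most counted, the share was 3.54% to 4.18% at 18°C and 2.02% to 2.65% at 29°C.

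The mir-285 hairpin changed its leading arm. miR-285-5p averaged 3195 ± 435 at 18°C and 966 ± 112 at 29°C, while miR-285-3p, known from glia of the blood-brain barrier, averaged 1784 ± 154 at 18°C and 1944 ± 374 at 29°C (SD, n = 4 each). The log2 ratio of 5p to 3p reads was 0.83 at 18°C and −0.995 at 29°C, a difference of 1.83 ± 0.22 (adjusted p = 1.47e-05). mir-210, which is known from the response to low oxygen in mammals, had arms of nearly equal level at 18°C, with 19282 ± 7019 for 5p and 20466 ± 4363 for 3p. At 29°C they were 5422 ± 1845 and 19212 ± 3198 in the same order. Its log2 ratio differed by 1.73 ± 0.24 (adjusted p = 4.24e-05), and miR-210-3p itself was not called (0.08 ± 0.19).

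In 3 hairpins the arms changed in opposite directions, each past the test. They were mir-1000, mir-927 and mir-278. miR-1000 is made in neurons and limits the release of glutamate. miR-1000-5p had 2328, 1677, 1798 and 1635 at 18°C, against 3312, 3456, 2477 and 2809 at 29°C (−0.70 ± 0.14, adjusted p = 0.000914). miR-1000-3p had 502, 516, 577 and 628 at 18°C, against 256, 272, 263 and 298 at 29°C (1.02 ± 0.13, adjusted p = 4.45e-05). Both arms were without overlap, in opposite order. miR-927-3p rose by 0.51 ± 0.10 and miR-278-5p by 0.41 ± 0.12, beside the falls of miR-927-5p and miR-278-3p. In 6 hairpins both arms rose, among them mir-34, mir-2c and mir-998, and in 3 (mir-33, mir-100 and mir-1004) both fell. For miR-33-3p the fall was 0.73 (SE 0.16), with 163 to 245 at 18°C and 282 to 421 at 29°C.

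**Figure D3:**
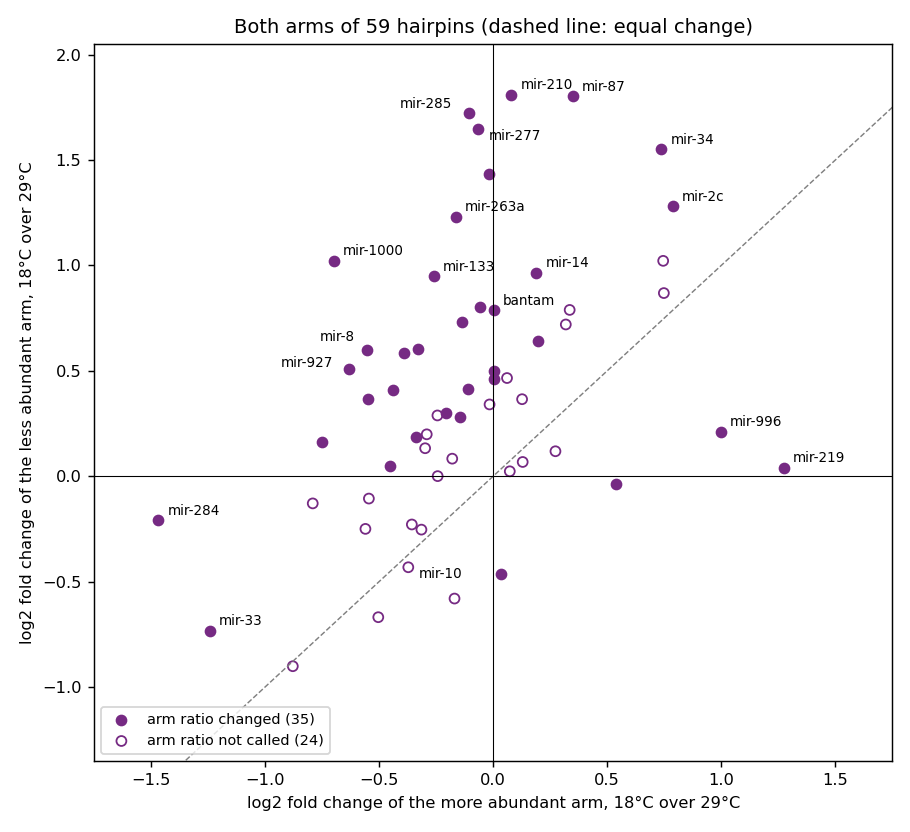
Log2 fold change of 18°C over 29°C of the less abundant arm (vertical axis) against that of the more abundant arm (horizontal axis) for the 59 hairpins with both arms well counted. Filled points mark the 35 hairpins whose arm ratio changed, and 48 of the 59 hairpins lie above the dashed line of equal change.

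Conserved miRNAs changed in both directions. Hairpins with vertebrate relatives gave 47 rows, of which 11 rose, 10 fell and 26 were not called (44.7% called, against 39.8% of all rows tested). Of their 26 more abundant arms 3 rose (miR-34-5p, miR-219-3p and miR-124-5p) and 6 fell (miR-8-3p, miR-33-5p, miR-92b-3p, miR-100-5p, miR-190-5p and miR-375-3p). Arms were ranked by reads, and which arm of a hairpin is the shared one was not tested. The less abundant arm miR-219-5p was not called (0.04). The rise of the neuronal miR-124-5p, of 0.32 ± 0.12 (adjusted p = 0.049), was at the limit of the test, and 17 of the 22 alternatives lost it. miR-124-3p, the arm known as the mature form, was the lower one here, at 141 to 232 at 18°C and 86 to 145 at 29°C (0.72, adjusted p = 0.039), and it lost its call in 7 of the alternatives, 6 of them with 1 library left out (18°C ZT3, ZT9 or ZT21, or 29°C ZT3, ZT9 or ZT15). miR-375-3p, known from hormone-secreting cells in mammals, was close to the limit as well (−0.40 ± 0.13, adjusted p = 0.0266), and lost its call without any one of 18°C ZT3, 18°C ZT9, 18°C ZT21 or 29°C ZT9. miR-190-5p, from an intron of the talin gene rhea, had 6475, 4159, 5763 and 6063 at 18°C, against 12264, 13104, 8137 and 6451 at 29°C (−0.79 ± 0.21, adjusted p = 0.00882). Its groups overlapped, since 29°C ZT21 lay among the 18°C values.

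A second list, of other hairpins shared with insects and other protostomes, gave 69 rows. Whether some of these also have vertebrate relatives was not tested. Of the 69 rows 18 rose and 12 fell (43.5% called), or 22 and 8 with values scaled to total reads. This list held 29 less abundant arms, and all 11 of these that were called rose (37.9% called). Of all less abundant arms tested, 28 rose and 9 fell (42.0% called). Of the 38 more abundant arms in this list 7 rose and 11 fell (47.4% called, against 35.4% of all more abundant arms tested). Those that rose were miR-281-3p (listed at 2 hairpins that share reads), miR-2c-3p, miR-965-5p, miR-995-5p, miR-996-5p and miR-998-3p. The call of miR-965-5p was lost without 18°C ZT15 or 18°C ZT21 (adjusted p = 0.0506 and 0.0533). The less abundant arms miR-995-3p and miR-996-3p were not called (−0.03 and 0.21). miR-281-3p had 7665, 7300.5, 9416 and 9003 at 18°C, against 4444, 5179, 5360.0 and 4885 at 29°C, without overlap (0.74 ± 0.14, adjusted p = 0.000835). Those that fell were miR-12-5p, miR-13a-3p, miR-13b-3p, miR-278-3p, miR-283-5p, miR-315-5p, miR-927-5p, miR-929-5p, miR-932-5p, miR-970-3p and miR-1000-5p. The hairpins of miR-929, miR-932 and miR-970 lie in introns of cpx, Nlg2 and Tomosyn, genes of synapse proteins, and miR-970-3p had 7193 to 9873 at 18°C and 11559 to 12111 at 29°C (−0.45 ± 0.11, adjusted p = 0.00323). miR-932-5p was at the limit (−0.34 ± 0.13, adjusted p = 0.049), and lost its call in 16 of the 22 alternatives. The 45 rows in neither list had 9 that rose and 12 that fell (46.7% called).

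By known role, the list of clock and rest-activity miRNAs had 5 of 13 rows higher at 18°C and none lower (bantam-5p, miR-210-5p, miR-969-3p and both arms of miR-124), or 38.5% called, against 39.8% of all rows tested. The number higher was 3 to 5 with 1 library left out, and 3 without any one of 18°C ZT3, 18°C ZT21, 29°C ZT3, 29°C ZT9 or 29°C ZT15. Without 29°C ZT3, 1 row was called lower. The bantam and miR-210 rows among them are the less abundant arms of their hairpins. The list of neuronal miRNAs had 4 of 22 rows higher and 7 lower (50% called), or 4 and 4 with values scaled to total reads. That of ageing had 3 of 16 higher and 3 lower (37.5%), and that of metabolism and insulin 3 of 12 higher and 4 lower (58.3%). The list of cell death and growth had 4 of 21 rows higher and 2 lower (28.6%), or 7 and 1 with values scaled to total reads, and all 4 that rose were less abundant arms.

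Hairpins that lie within 10 kb on one strand are often made from one transcript. The cluster of mir-317, mir-277 and mir-34 (3R:10091126-10101034, + strand) gave rises in both arms of miR-34 and in miR-277-5p (1.65), whereas miR-317-5p was not called (0.50 ± 0.21, adjusted p = 0.0748). The main arm of miR-277, which acts on the breakdown of branched-chain amino acids, averaged 248779.7 ± 12286 at 18°C and 262169 ± 33475 at 29°C, and miR-317-3p averaged 35311 ± 5518 at 18°C and 35243 ± 5974 at 29°C (SD, n = 4 each). Neither was called. In the let-7 complex (2L:18471434-18472424, + strand), which times the change to the adult, miR-100-5p had 46649.8, 46169, 48462 and 52775 at 18°C, against 74180.0, 72035, 72778 and 57249 at 29°C. It fell by 0.50 (SE 0.11, adjusted p = 0.00254) without overlap. let-7-5p, at 91293 to 146455 at 18°C and 119696 to 175525 at 29°C, was not called (−0.29 ± 0.21), nor was miR-125-5p, at 48516 to 51916 at 18°C and 54131 to 66281 at 29°C (−0.21 ± 0.09, adjusted p = 0.0885).

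Relatives within one cluster also went apart. The miR-2 family, to which miR-13 belongs, represses cell death genes such as reaper. In the cluster of mir-13b-1, mir-13a and mir-2c (3R:15417408-15417845, − strand), miR-13b-3p had 13729 to 15648 at 18°C and 17889 to 20133 at 29°C, and fell by 0.36 (SE 0.09, adjusted p = 0.00497). miR-13b-3p is also made from a second hairpin on X, and its reads cannot be assigned. miR-13a-3p fell by 0.55 (SE 0.13, adjusted p = 0.00315), with 569 to 713 at 18°C and 854.7 to 1063 at 29°C. miR-2c-3p rose by 0.79 (SE 0.21, adjusted p = 0.00766), with 1256 to 1827 at 18°C and 698 to 1258 at 29°C, where the ranges just met. The 3p arms of miR-2, miR-13, miR-6, miR-11 and miR-308 summed to 235591 ± 26933 at 18°C and 204111 ± 21750 at 29°C (SD, n = 4 each). Most of this was miR-11-3p, and without it the sum was 34286 ± 2794 at 18°C and 37563 ± 1474 at 29°C, in the other order.

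In the Gmap intron that holds mir-283, mir-304 and mir-12 (X:15507956-15509546, + strand), miR-283-5p had 8090.4, 7435, 9516 and 9330.1 at 18°C, against 15727, 15821, 13466 and 12813 at 29°C. It fell by 0.75 (SE 0.12, adjusted p = 0.000263) and miR-12-5p by 0.66 (SE 0.13, adjusted p = 0.00115), both without overlap. miR-304-5p was not called (−0.39 ± 0.18, adjusted p = 0.0893) and miR-304-3p rose by 0.58 ± 0.16. In an intron of the cell cycle gene E2f1, both arms of miR-998 rose, the 3p arm by 0.34 ± 0.10 (adjusted p = 0.0188), a call that was lost without any one of 18°C ZT3, 18°C ZT9 or 29°C ZT15. Its neighbour miR-11-3p, which limits cell death, was not called (0.27 ± 0.12, adjusted p = 0.0834). The clusters of mir-275 with mir-305 and of mir-6, mir-5 and mir-286 had no row called.

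**Figure D4:**
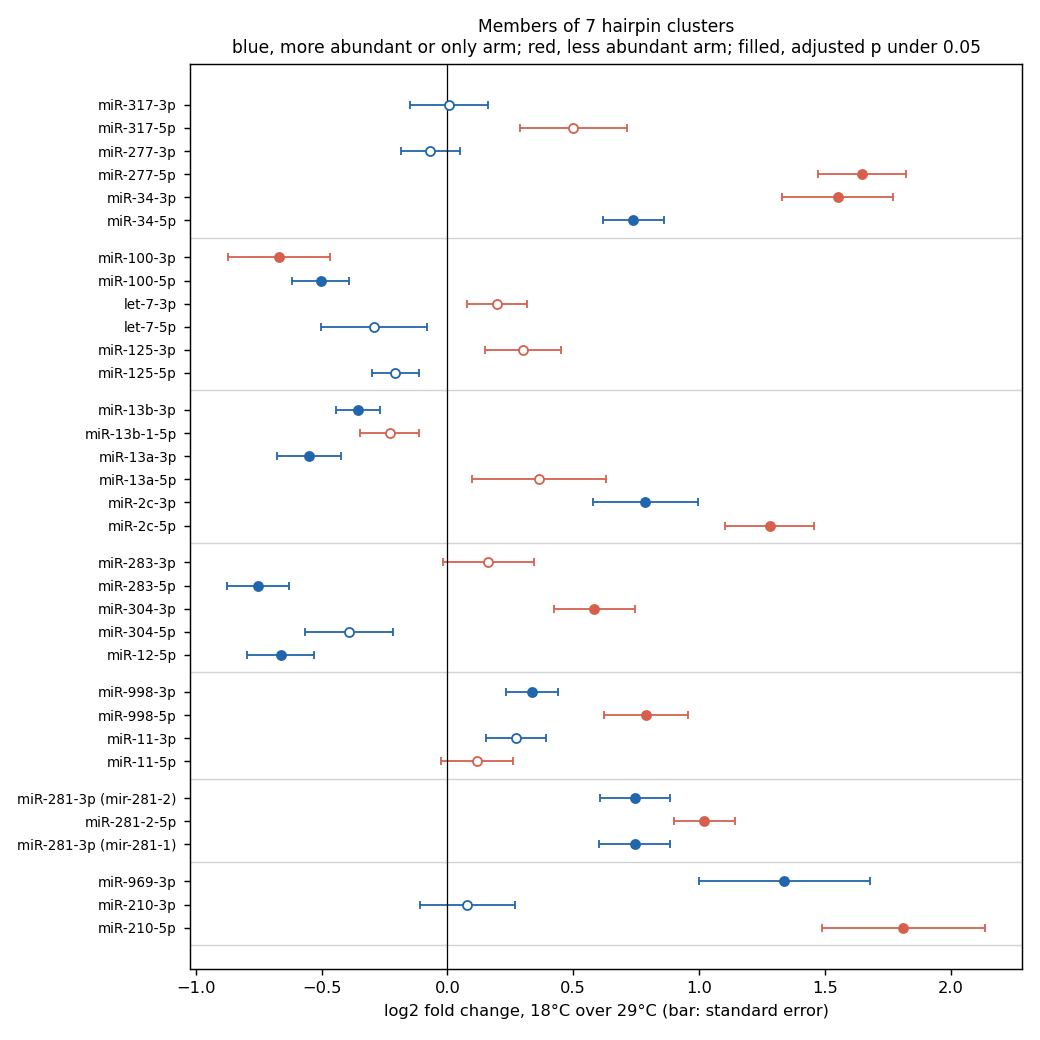
Log2 fold change of 18°C over 29°C with its standard error for the well-counted arms of 7 hairpin clusters, separated by grey lines. Filled points were called. In the top cluster the arms of miR-34 and miR-277-5p rose, miR-317-5p at 0.50 was not called, miR-277-3p stood at −0.07 and miR-317-3p at 0.01.

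At 25°C, 63 of the 72 called miRNAs had a mean between those at 18°C and 29°C. Among all rows tested this held for 83 of the 97 called. For 48 of the 72 the 25°C mean was nearer to 29°C on the log2 scale, a count that was not made for all 97. 25°C is also nearer to 29°C in degrees, and the part of this in the count was not tested. In order of rising temperature, miR-33-5p had means of 30280.4, 41707 and 71914, with 25°C nearer to 18°C, and miR-284-5p had 13179, 24500.4 and 36223. miR-34-5p stood close to its 29°C level at 25°C (463246, 294364 and 277672). The 9 whose 25°C mean lay outside were miR-8-3p, miR-1004-5p, miR-957-3p, miR-315-5p, miR-33-3p, miR-124-5p, miR-965-5p, miR-278-5p and miR-304-3p.

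A few well-counted miRNAs varied far more between libraries of one temperature than between temperatures. The median SD of log2 values within a temperature was 0.20 at 18°C and 0.22 at 29°C, and 6 rows had an SD over 1. miR-956-3p had 41.1, 556, 37.4 and 948 at 18°C. At 25°C it had 73.5, 60.2, 1043 and 65.3, and at 29°C it had 83.5, 100.1, 1058 and 1472. Its libraries thus were either at 100.1 and below or at 556 and above, at each temperature, and its log2 fold change of −0.99 was not called (adjusted p = 0.664). miR-286-3p, miR-5-5p and miR-6-3p lie in one cluster that is known to be active in the early embryo. miR-286-3p had 930.3, 119, 156 and 151 at 18°C, against 50.3, 398, 899 and 53.6 at 29°C. The same libraries (18°C ZT3, 29°C ZT9 and 29°C ZT15, and at 25°C ZT9) were the high ones for miR-5-5p and miR-6-3p. miR-316-3p was high in other libraries, with 955, 2637, 583 and 327 at 18°C and 446, 1302, 455 and 2916 at 29°C.

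**Figure D5:**
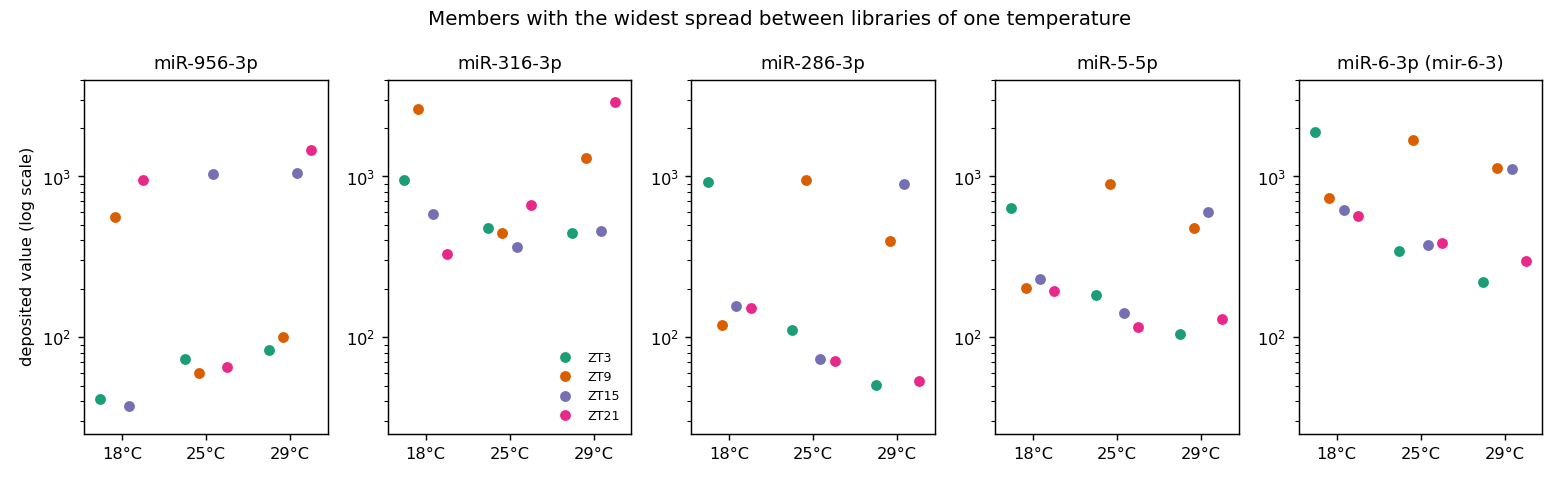
Deposited values (log scale) in each library of the temperatures 18, 25 and 29°C, coloured by time point, of the 5 miRNAs with the widest spread within a temperature. miR-956-3p fell into a low set of up to 100.1 and a high set from 556, and miR-286-3p, miR-5-5p and miR-6-3p were high in the same 4 libraries.

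The limit of inclusion cut through a run of similar levels. Just inside were miR-955-5p, miR-100-3p and miR-283-3p, with means over all libraries of 100.8, 100.6 and 100.1, and just outside were miR-4-3p, miR-92a-3p and miR-79-5p, with 99.2, 85.8 and 78.4.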

How the data were processed

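Small RNAs bound to AGO1 were sequenced from heads in 12 libraries, and the authors assigned reads to mature miRNAs of miRBase 21 with miRExpress. Its settings were not given in the sources used here. The deposited values are a signal, which the authors made by dividing reads by one size factor per library (0.392 to 1.52). Read from the values themselves, 100% of 4896 values were whole multiples (within 0.01) of the worth of 1 read. Of 408 rows, 5 repeated another row in every library and were dropped. A floor of 3 reads was worth 1.97 to 7.65. Without molecular identifiers such floors cover counting error only.

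Groups followed the labels, with time points as replicates (n = 4). limma 3.58.1 (R 4.3.3; lmFit, contrasts.fit, eBayes with trend and robust) was run on log2(value + 1) over all 12 libraries and 3 temperatures. The 244 rows passing filterByExpr were tested, and rows with an adjusted p under 0.05 (Benjamini-Hochberg) were called. Fold changes are 18°C over 29°C on that scale, which understates changes of low miRNAs. Arm ratios were log2 of 5p over 3p reads, with 0.5 added to each, where both arms averaged 10 reads or more, and arms were ranked by mean reads. Fits were tested on simulated data. Alternatives used edgeR 4.0.16 and DESeq2 1.42.0 on the recovered reads. Hairpin positions came from the Ensembl annotation of build BDGP6.54, by name, which matched all but mir-263a. Summaries used Python 3.11.15 with pandas 2.3.3.

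Named miRNAs were the 10 most abundant, the 8 called with the largest change each way, the 12 most abundant called under 2-fold, the 3 rows on each side of the limit of 100, called main arms of the conserved lists, and other arms of these. Further miRNAs, such as those of clusters, were named after their values were seen. Members, lists and rules were chosen with earlier results of these data known. No mature sequences were used here.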

Additional observations from a re-analysis of the deposited data

Results flagged for a closer look

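In 9 of 150 groups of 4 libraries searched, 1 library stood apart from the other 3 by Dixon's criterion of gap over range. Chance alone flags about 1 in 20 groups, or 7.5 here. In the 29°C ZT21 library, the shallowest, these were miR-34-3p at 29318 (others 18744 to 19228), miR-2a-2-5p at 181 (others 91.3 to 102) and miR-100-5p at 57249 (others 72035 to 74180.0). In the 29°C ZT9 library miR-1004-3p was at 1911 (others 1546 to 1574) and miR-375-3p at 777 (others 684 to 695). miR-13a-3p was at 1063 in 29°C ZT3 (others 855 to 869.9), and miR-278-3p at 18322 in 18°C ZT21 (others 24494 to 25692). In the 18°C ZT3 library the flagged miRNAs were both just under the limit of inclusion, miR-4-3p at 318 (others 26.4 to 42.5) and miR-92a-3p at 105 (others 70.5 to 74.6). The 7 called miRNAs among these 9 are miR-34-3p, miR-2a-2-5p, miR-1004-3p, miR-100-5p, miR-278-3p, miR-13a-3p and miR-375-3p.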

How the results depend on the processing

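Of the 72 calls, 56 kept their call and direction in all 22 alternatives (33 higher and 23 lower at 18°C), and 59 did so in the 12 fits that each left out 1 library. The number called was 67 to 74 under other pseudocounts, filters, scalings, tools and libraries fitted, and 64 to 84 with 1 library left out, the highest without 29°C ZT21. None of the 72 was called in the other direction in any of them. Scaling to the total reads of each library moved the median of all rows to 0.13, and kept all 38 higher calls and 24 of the 34 lower ones. Less abundant arms called lower at 18°C, 6 in all, were 3 with this scaling and 3 to 6 with 1 library left out. Hairpins with a changed arm ratio, 35 in all, were 30 to 39 under other settings and 24 to 39 with 1 library left out. Only uncalled changes reversed: bantam-3p was −0.0116 with TMM scaling and −0.0121 in DESeq2, miR-277-3p was 0.031 and miR-2a-3p (mir-2a-2) 0.0828 with total reads, and with 1 library left out bantam-3p ranged over −0.0804 to 0.0577, miR-4-3p over −0.92 to 0.52, miR-210-3p over −0.0114 to 0.22 and miR-2a-3p (mir-2a-2) over −0.10 to 0.0739. The 18°C and 29°C libraries of 1 time point did not deviate together (correlations of −0.29 to 0.06). Such correlations cannot exclude a shared collection or preparation, which was not tested. A fit with time point as replicate block called 71, of which 68 were among the 72, and 38 arm ratios. Depth limits the lowest rows most, since the shallowest library held 14 reads of one of them. The cause of these shifts was not tested.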

Other observations

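Short hairpins in introns numbered from mir-1003 to mir-1017 gave 12 well-counted rows, 3 of them higher at 18°C, 3 lower and 6 not called, or 50% called against 39.8% of all rows tested. miR-1013-3p, from an intron of the growth control gene wts, averaged 1389 ± 166 at 18°C and 824 ± 46.8 at 29°C (SD, n = 4 each), with 1361 at 25°C, so that 29°C stood apart. miR-1004-5p, from an intron of CG43707, averaged 939.9 ± 93.2 at 18°C and 1727 ± 132 at 29°C (SD, n = 4 each), with 1789 at 25°C, so that 18°C stood apart.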
